A study of Homo sapiens with 8 samples.

Results

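Oncofetal genes are typically high in the embryo, low in most adult tissues and high again in many tumors. HMGA2, HMGA1, LIN28B, IGF2BP1, IGF2BP2 and IGF2BP3 are grouped here under that name, and whether each follows the pattern was not tested. The 6 genes belong to the group of transcripts that the let-7 microRNA family is known to repress. They were followed on 8 two-colour Agilent Human GE 60K arrays in 5 human cancer cell lines. Probes were chosen by the gene name in the scanner output, which gave 6 of 43317 gene names and 9 of 58201 probes, with 3 probes for HMGA2, 2 for IGF2BP2 and 1 for each of the other 4 genes. The choice of these genes used their ratios and their mock levels on all 8 arrays, so those values are given as a description with no test. The distal probe of HMGA2 was at least 2-fold higher in transfected than in mock cells on 5 arrays. LIN28B was so on both PANC1 arrays and IGF2BP1 on 1 PANC1 array. No probe of the 6 genes was 2-fold lower on any array where it was measured. Over all measured probes, 3.54% to 7.96% per array were at least 2-fold higher and 1.03% to 6.44% at least 2-fold lower. Nothing is read from these counts.

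Every array compared transfected cells, labelled with Cy5, with mock cells of the same line, labelled with Cy3, and the dyes were not swapped. PC3 prostate cancer cells received an siRNA against PIR (pirin), si-PIR-2 on one array and si-PIR-3 on the other. SK-MES-1 lung cancer cells received miR-144-5p or miR-144-3p, SW1990 pancreatic cancer cells and MDA-MB-231 breast cancer cells received miR-204-5p, and PANC1 pancreatic cancer cells received miR-130-5p or miR-130-3p, with 1 array per transfection. By the labels the mock cells were not transfected, so that a response to the transfected sequence and a response to transfection itself cannot be told apart on these arrays. The labels give neither the a or b form of miR-130 nor whether the mock RNA on the arrays of one line was the same preparation, and the siRNA numbers in the labels differ from those in the study's methods. In RNA of a whole culture, less RNA per cell and fewer cells that express a gene cannot be told apart.

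The let-7 family is absent from early embryonic cells and accumulates as cells differentiate. LIN28B, an RNA-binding protein, holds let-7 low by binding its precursors. The terminal uridylyltransferases TUT4 and TUT7 can mark let-7 precursors for decay by DIS3L2. HMGA2 and HMGA1 are architectural chromatin proteins that bind the minor groove of AT-rich DNA, and IGF2BP1, IGF2BP2 and IGF2BP3 bind messenger RNAs and affect their stability, localisation and translation. The transcript HMGA2 NM_003483 ends in a long 3′ untranslated region with several let-7 sites, whereas transcripts such as NM_003484 end in a different last exon. LIN28B and let-7 repress each other, since LIN28B is itself a let-7 target.

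The mature sequences show which seeds were introduced and which one defines the let-7 family. They are from RefSeq (GRCh38.p14), written 5′ to 3′ with the seed, bases 2 to 8, in capitals. All 9 let-7 family members in the reference share 1 seed, and none of the transfected miRNAs carries it. The arms of miR-130 are shown for each form in the reference, since the labels do not say which was used.
hsa-let-7a-5p: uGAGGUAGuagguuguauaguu
hsa-let-7g-5p: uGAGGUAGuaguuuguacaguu
hsa-miR-98-5p: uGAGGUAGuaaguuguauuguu
hsa-miR-144-5p: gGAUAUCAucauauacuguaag
hsa-miR-144-3p: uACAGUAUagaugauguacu
hsa-miR-204-5p: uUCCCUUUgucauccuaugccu
hsa-miR-130a-5p: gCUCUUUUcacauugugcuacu
hsa-miR-130b-5p: aCUCUUUCccuguugcacuac
hsa-miR-130b-3p: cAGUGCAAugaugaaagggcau
The sequence of miR-204-5p lies on chromosome 9 from 70810031 to 70810052 on the minus strand, and miR-144-5p and then miR-144-3p lie on chromosome 17 from 28861583 to 28861604 and from 28861548 to 28861567, also on the minus strand.

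Per array, 43.7% to 48.6% of the spots were well above background in Cy3 and 51.8% to 56.5% in Cy5, and 0 spots were saturated. The targeted gene PIR had a log2 ratio of -5.46 with si-PIR-2 and -4.27 with si-PIR-3. On the other arrays it lay between -0.24 and 0.05, except with miR-130-5p in PANC1, where it was -1.59. Of the markers of the labelled lines, the keratins KRT8, KRT18 and KRT19 were well above background in mock cells of all 5 lines, while KLK3 and PGR were not in any line and CDH1 was not in SK-MES-1 or PANC1. Of the 4 squamous markers, TP63 and KRT14 passed in SK-MES-1 and KRT5 and DSG3 did not, while KRT5 and KRT14 passed in SW1990, where the mock level of KRT14 was 11.02 against 6.59 and 6.35 in SK-MES-1. At least 1 probe of the immune markers PTPRC and CD14 passed the same flag in every line, so that passing the flag alone does not separate cell types. With 1 array per transfection, precision is limited by how few arrays there are.

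The log2 ratio of a probe is the scanner software's ratio of Cy5 over Cy3, and a probe counts as measured on an array where at least 1 channel was well above background. With si-PIR-2, 1 of 7 measured probes of the 6 genes was at least 2-fold higher, against 6.04% of all measured probes, and 0 were 2-fold lower, against 2.93%. With si-PIR-3, 1 of 9 was higher (3.99% of all probes) and 0 lower (2.40%). In SK-MES-1, 0 of 9 were higher or lower with miR-144-5p (4.20% and 1.88% of all probes) and 0 of 9 with miR-144-3p (4.58% and 1.03%). With miR-204-5p, 1 of 8 was higher in SW1990 (4.67%) and 1 of 7 in MDA-MB-231 (3.54%), and 0 were lower in either line (1.90% and 1.84%). In PANC1, 1 of 9 was higher with miR-130-5p (7.96%) and 3 of 9 with miR-130-3p (6.32%), and 0 were lower (6.44% and 1.87%). These are the values that chose the genes, and nothing is read from the comparison. The median ratio of the measured probes of the 6 genes was 0.68 with miR-130-3p, where the median of all measured probes was 0.03, and -0.10 with miR-144-5p, where it was 0.04. The background depends on the handling of dim probes. Among probes well above background in both channels, as all probes of the 6 genes past 2-fold were, 0.565% to 3.90% were at least 2-fold higher and 1.01% to 6.57% at least 2-fold lower.

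**Figure D1:**
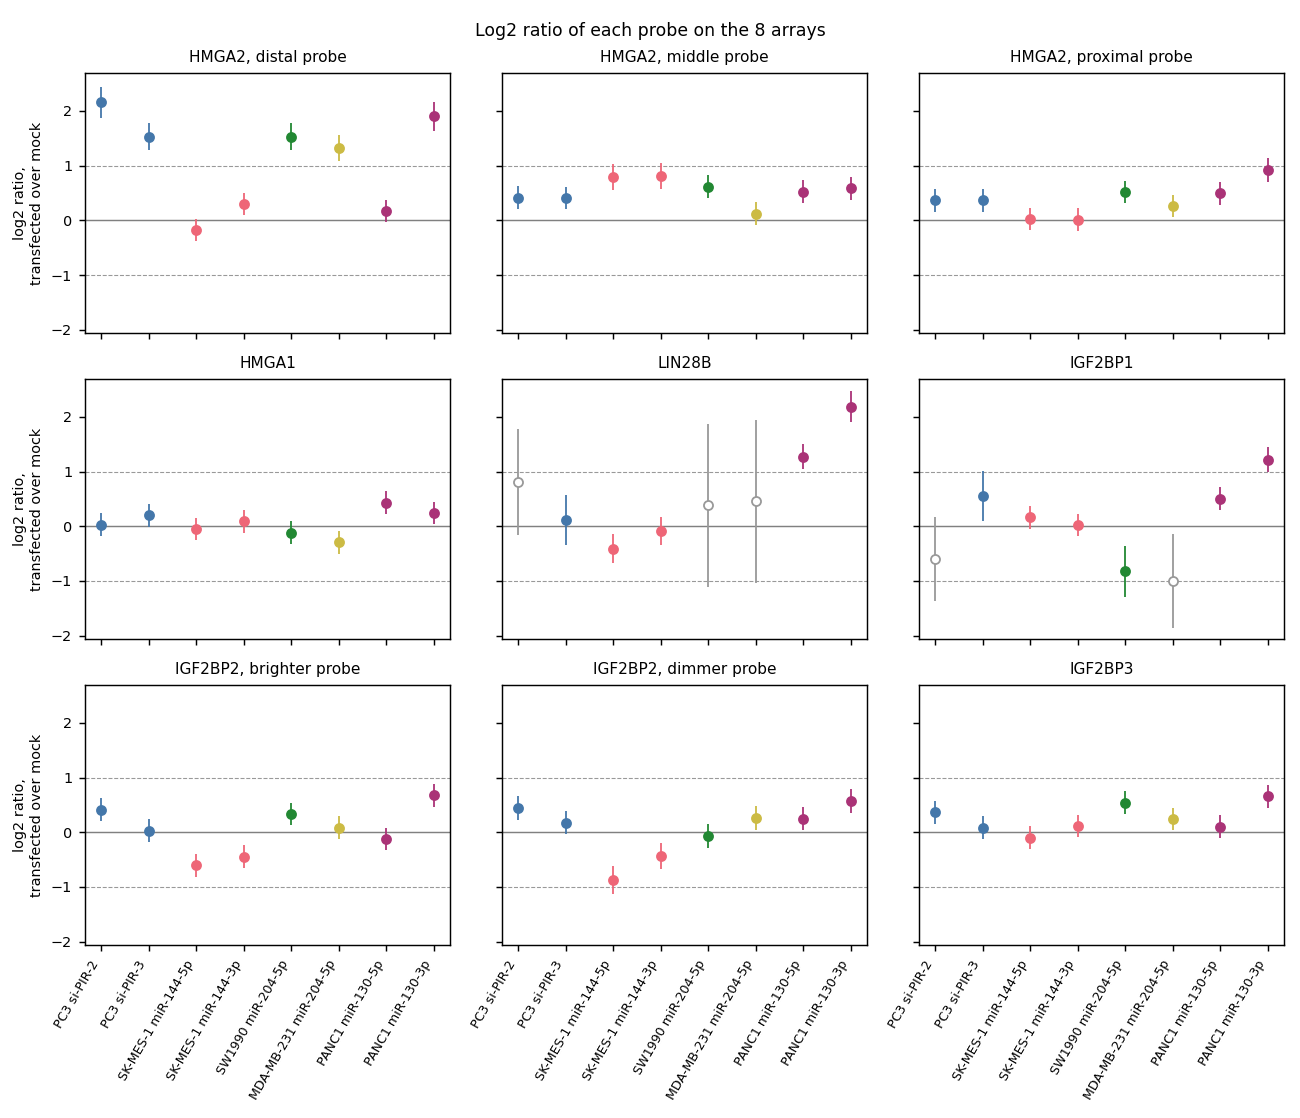
Log2 ratio of transfected over mock cells (vertical axis) for each of the 9 probes on the 8 arrays (horizontal axis), with the error that the scanner software gives as a bar, 1 colour per cell line, and dashed lines at 2-fold. Open grey points are values with neither channel well above background. The HMGA2 distal probe is above the upper line on 5 arrays, at 1.32 to 2.16, and LIN28B is above it in PANC1, at 1.27 and 2.19.

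The 3 HMGA2 probes lie along the gene on chromosome 12, in hg19 coordinates of the array annotation. The proximal probe, A_33_P3211078, lies from 66219101 to 66219160, the middle probe, A_33_P3357658, from 66309240 to 66309299, and the distal probe, A_23_P95930, from 66359789 to 66359848, all on the plus strand. The array annotation assigns the distal probe to NM_003483, the transcript with the let-7 sites, and the middle probe to NM_003484 and NM_001300919. It lists NM_001300918, NM_003484 and NM_001300919 for the proximal probe, which lies in the protein-coding part near the 5′ end of the gene. Bases 31 to 60 of each probe are shown because the result depends on which part of the gene is read.
HMGA2 proximal probe: aggacgcggccgccccaggaagcagcagca
HMGA2 middle probe: gtgtggtttgatttcataaaacagatgctt
HMGA2 distal probe: caagacgtttaactgcagttgactttctcc

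HMGA2 gave different ratios by its distal and its other probes. With si-PIR-2 in PC3, the distal probe had a log2 ratio of 2.16 with a software error of 0.285, from a Cy3 signal of 2258 in mock cells to a Cy5 signal of 10099 in transfected cells. With si-PIR-3, its ratio was 1.53, from 2112 to 6097. Both PC3 arrays were thus past 2-fold, at the 99.7th and 98.3rd percentile of all measured probes. With miR-204-5p, the distal probe had a ratio of 1.53 in SW1990, from 2813 to 8100, and of 1.32 in MDA-MB-231, from 1272 to 3166. In PANC1, the ratio was 1.90 with miR-130-3p, from 4826 to 18042, and 0.17 with miR-130-5p, from 5886 to 6632. In SK-MES-1, it was -0.17 with miR-144-5p, from 8469 to 7518, and 0.30 with miR-144-3p, from 7212 to 8873. The distal probe therefore split the arrays into 5 past 2-fold and 3 between -0.17 and 0.30, with no value between.

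The middle and proximal probes stayed under 2-fold on all 8 arrays. The middle probe had ratios of 0.42 and 0.41 in PC3, in the order si-PIR-2, si-PIR-3, then 0.79 and 0.82 with miR-144-5p and miR-144-3p, 0.61 and 0.12 with miR-204-5p in SW1990 and MDA-MB-231, and 0.52 and 0.58 with miR-130-5p and miR-130-3p. Its 2 highest values were in SK-MES-1, where its Cy3 signal was 84.8 and 84.5. With normexp at an offset of 50 these 2 values were 0.31 and 0.30. The distal minus middle differences in SK-MES-1 therefore depend on the processing. The proximal probe had ratios of 0.37 and 0.37 in PC3, 0.02 and 0.01 in SK-MES-1, 0.52 in SW1990, 0.26 in MDA-MB-231, and 0.50 and 0.92 in PANC1 with miR-130-5p and miR-130-3p. Its highest value was on the miR-130-3p array, where the distal probe was also past 2-fold. The distal minus middle difference was 1.74 and 1.12 in PC3, 0.91 in SW1990, 1.19 in MDA-MB-231 and 1.32 with miR-130-3p, and -0.96, -0.52 and -0.35 with miR-144-5p, miR-144-3p and miR-130-5p, each with a combined software error of 0.294 to 0.353. On the same arrays, the distal minus proximal difference was 1.79, 1.16, 1.01, 1.05 and 0.98, and then -0.20, 0.28 and -0.33. The software error covers the spot and not the spread between cultures.

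**Figure D2:**
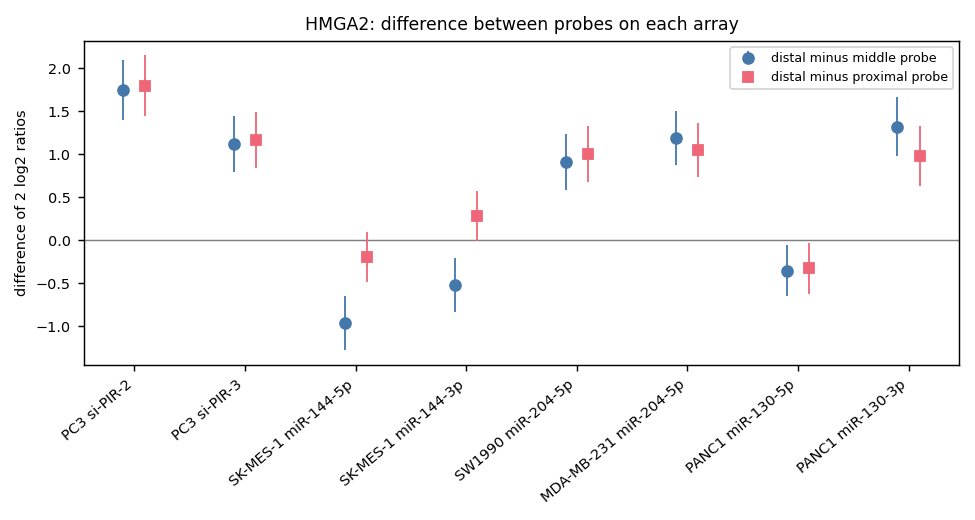
Difference of log2 ratios between HMGA2 probes (vertical axis) on each of the 8 arrays (horizontal axis), for the distal minus the middle probe (circles) and the distal minus the proximal probe (squares), with the combined software error as bars. Both differences lie between 0.91 and 1.79 on the 2 PC3 arrays, the 2 miR-204-5p arrays and the miR-130-3p array, and between -0.96 and 0.28 on the other 3. In SK-MES-1 the middle probe is dim, and the distal minus middle difference depends on the processing.

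In mock cells, the order of the lines by HMGA2 level was reversed between the distal and the middle probe for PC3 and SK-MES-1. Mock levels are log2 Cy3 signals scaled between arrays by Aquantile and are compared only within a probe. By the distal probe, SK-MES-1 was highest with a mean of 13.09, followed by PANC1 with 12.22, SW1990 with 11.58, PC3 with 11.05 and MDA-MB-231 with 10.41. By the middle probe, PC3 was highest with 11.20, followed by MDA-MB-231 with 9.81, PANC1 with 9.01, SW1990 with 8.95 and SK-MES-1 with 6.21. SK-MES-1 was thus 4.13-fold higher than PC3 by the distal probe and PC3 31.7-fold higher than SK-MES-1 by the middle probe, a log2 difference of 4.99 that was 3.05 with normexp at an offset of 50. The arrays of one line differed by 0.01, 0.02 and 0.17 for the distal probe and by 0.03, 0.15 and 0.08 for the middle probe in PC3, SK-MES-1 and PANC1. PANC1 and SW1990 differed by 0.06 by the middle probe, which is within the SD of 0.179 to 0.202 between mock signals of one line over all probes. By the proximal probe, the 5 lines lay between 8.87 in PANC1 and 9.87 in PC3. The line with the highest mock level by the distal probe, SK-MES-1, was also the one with no distal ratio past 2-fold on either array, while in PANC1, the second highest, 1 of 2 arrays was past it.

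**Figure D3:**
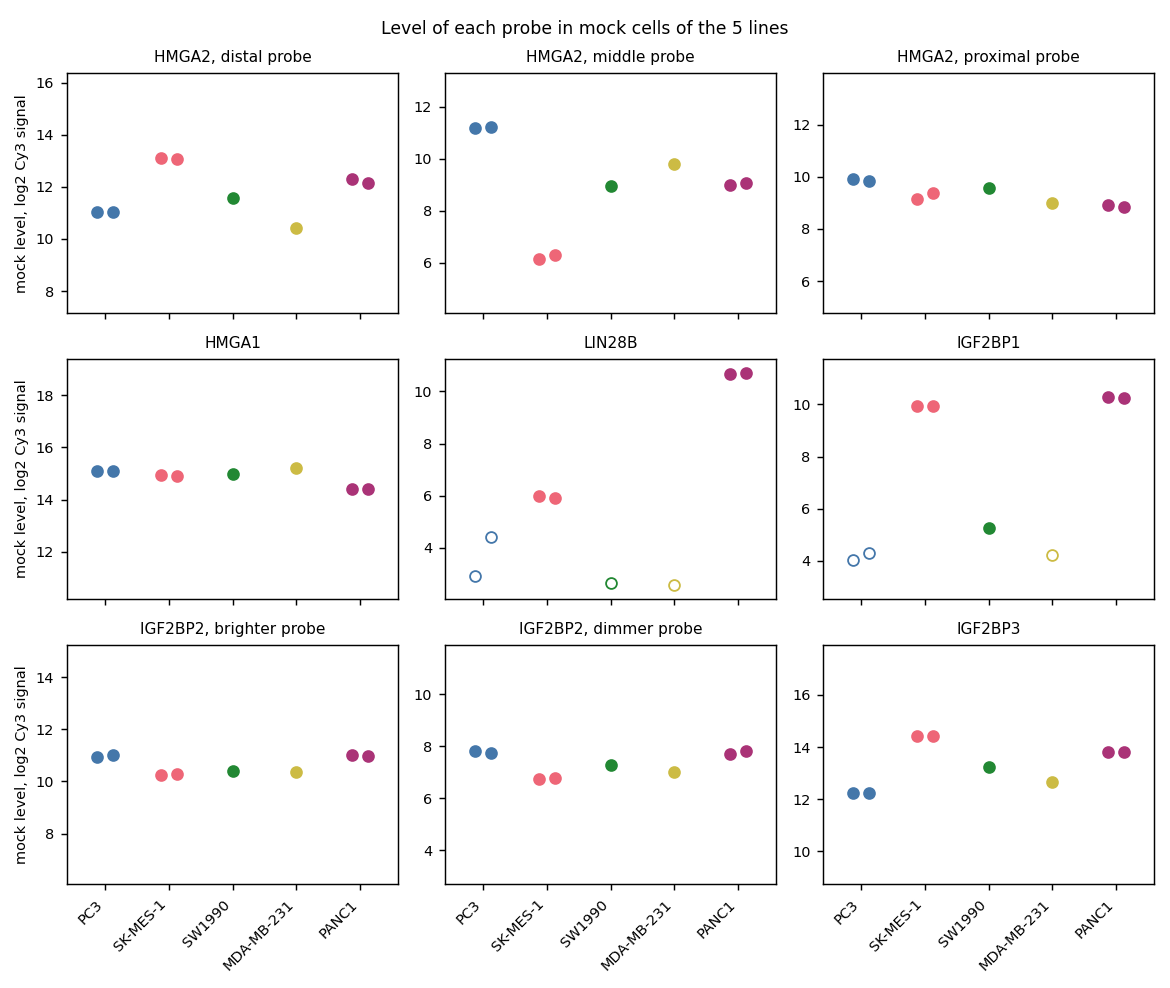
Mock level (vertical axis, log2 Cy3 signal after scaling between arrays) of each probe in the 5 lines (horizontal axis), 1 point per array. Open points are not well above background, and each panel has its own range, so that levels are compared only within a panel. The HMGA2 distal probe is highest in SK-MES-1 (13.09) and the middle probe highest in PC3 (11.20), and LIN28B is at 10.70 in PANC1 and 5.95 in SK-MES-1.

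HMGA1, the other member of the HMGA family, is represented by the probe A_23_P42331 on chromosome 6 from 34213595 to 34213654 (hg19, plus strand). Its ratios were 0.03 and 0.20 in PC3, -0.05 and 0.09 in SK-MES-1, -0.11 in SW1990, -0.29 in MDA-MB-231, and 0.43 and 0.24 in PANC1 with miR-130-5p and miR-130-3p. The Cy3 signal in mock cells was between 22299 and 37943 on every array. HMGA1 was thus bright in all 5 lines and under 2-fold on all 8 arrays, with mock means from 14.40 in PANC1 to 15.20 in MDA-MB-231. Its probe was the only one of the 9 that carried the 7 bases CTACCTC, which pair with the let-7 seed. They are in capitals in bases 16 to 45 of the probe.
HMGA1 probe: ctgttcacaaaCTACCTCtggacagttgtg
These letters occurred in 183 of the 58201 probes on the array (0.314%) and their reverse complement in 112, and a match is not evidence of a working site. The window of 60 bases in the other 8 probes does not hold them, which says nothing of the rest of each transcript.

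LIN28B was measurable mainly in PANC1. Its probe, A_33_P3220615, lies on chromosome 6 from 105531071 to 105531130 (hg19, plus strand). In PANC1, the Cy3 signal of mock cells was 1870 and 1770 on the arrays of miR-130-5p and miR-130-3p, and it was 4523 and 8057 in Cy5 after transfection. LIN28B had a log2 ratio of 1.27 with miR-130-5p and of 2.19 with miR-130-3p, with software errors of 0.235 and 0.287. Both arrays were past 2-fold, at the 95.2nd and 99.7th percentile of all measured probes. In SK-MES-1, the Cy3 signal was 79.7 and 66.2, and the ratios were -0.41 with miR-144-5p and -0.08 with miR-144-3p. In PC3, SW1990 and MDA-MB-231, the mock signal was not well above background, and the Cy5 signal was so on the si-PIR-3 array alone, where the ratio was 0.12 with a software error of 0.460. The mock level in PANC1 was 26.9-fold higher than in SK-MES-1, a log2 difference of 4.75 that was 2.74 with normexp at an offset of 50. Against the lowest signal well above background, it was at least 69.4-fold higher than in PC3, at least 62.1-fold higher than in SW1990 and at least 61.7-fold higher than in MDA-MB-231.

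IGF2BP1 was highest in mock cells of PANC1 and SK-MES-1. The probe, A_23_P83498, lies on chromosome 17 from 47132379 to 47132438 (hg19, plus strand), is printed in 10 spots on each array and ends in a run of 6 G. The Cy3 signal in mock cells was 1410 and 1317 in PANC1 and 1015 and 902 in SK-MES-1. In SW1990 it was 32.0, and in PC3 and MDA-MB-231 it was not well above background. In PANC1, the ratio was 0.51 with miR-130-5p and 1.22 with miR-130-3p, with an SD of 0.05 and 0.06 over the 9 spots used on each array. The spread between spots is a technical error and does not cover the spread between cultures. In SK-MES-1, the ratios were 0.16 and 0.03, with SDs over spots of 0.04 and 0.06. The ratio in SW1990 was -0.83, with an SD of 0.49 over 10 spots, and that with si-PIR-3 was 0.55, with an SD of 0.63 over 10 spots. On the si-PIR-2 and MDA-MB-231 arrays neither channel was well above background. Mock PANC1 and SK-MES-1 differed by 0.33, or 1.26-fold, and PANC1 was 32.3-fold higher than SW1990 and at least 51.5-fold and 45.8-fold higher than PC3 and MDA-MB-231. The PANC1 minus SW1990 difference was 5.01 on the log2 scale and 2.46 with normexp at an offset of 50.

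IGF2BP2 has 2 probes on chromosome 3 (hg19, minus strand), A_23_P250156 from 185362047 to 185362106 and the dimmer A_33_P3242973 from 185363403 to 185364863, a span of 1461 bases for 60 bases of probe. The brighter probe had ratios of 0.41 and 0.03 in PC3, -0.61 and -0.45 in SK-MES-1, 0.33 in SW1990, 0.08 in MDA-MB-231, and -0.12 and 0.68 in PANC1. The dimmer probe had ratios of 0.44 and 0.18, -0.87 and -0.43, -0.08, 0.26, and 0.25 and 0.57 on the same arrays. Both probes were lowest on the SK-MES-1 arrays and highest on the miR-130-3p array, and neither passed 2-fold on any array. They differed in sign in SW1990 and with miR-130-5p. By the brighter probe, the mock level was 10.99 in PC3, with PANC1 above it by 0.01, 10.40 in SW1990, 10.37 in MDA-MB-231 and 10.27 in SK-MES-1, so that PANC1 and PC3, and the other 3 lines, differed among themselves by less than the SD between mock signals of one line.

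IGF2BP3 was bright in every line. Its probe, A_23_P19987, lies on chromosome 7 from 23350769 to 23350828 (hg19, minus strand). The ratios were 0.37 and 0.09 in PC3, -0.10 and 0.11 in SK-MES-1, 0.54 in SW1990, 0.25 in MDA-MB-231, and 0.10 and 0.66 in PANC1 with miR-130-5p and miR-130-3p. None passed 2-fold, and 7 of the 8 were above 0. The Cy3 signal in mock cells was 20162 and 17952 in SK-MES-1, 17061 and 14853 in PANC1, 9362 in SW1990, 6459 in MDA-MB-231 and 5176 and 4775 in PC3. SK-MES-1 was 1.53-fold higher than PANC1 and 4.56-fold higher than PC3. The arrays of one line differed by 0.01 to 0.03, and SW1990 and MDA-MB-231 have 1 array each, so that the spread between cultures is not known for this order.

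The widest spread between arrays of one line was in PANC1, whose arrays may share mock RNA, so the values are set side by side. The ratio with miR-130-3p minus that with miR-130-5p was 1.73 for the HMGA2 distal probe, 0.91 for LIN28B, 0.80 for the brighter IGF2BP2 probe, 0.71 for IGF2BP1 and 0.55 for IGF2BP3, with combined software errors of 0.295 to 0.371. It was 0.42 for the HMGA2 proximal probe, 0.32 for the dimmer IGF2BP2 probe, 0.06 for the HMGA2 middle probe and -0.19 for HMGA1. Over all 28201 probes measured on both arrays the median difference was -0.06, with 8.86% at 1 or more and 7.12% at -1 or less. The 9 probes belong to 6 genes chosen with these values known, so nothing is read from how many were higher. In SK-MES-1, the differences of miR-144-3p minus miR-144-5p lay between -0.13 for IGF2BP1 and 0.47 for the HMGA2 distal probe. In PC3, si-PIR-3 minus si-PIR-2 lay between -0.63 for the HMGA2 distal probe and 0.17 for HMGA1. For miR-204-5p, MDA-MB-231 minus SW1990 lay between -0.49 for the HMGA2 middle probe and 0.34 for the dimmer IGF2BP2 probe.

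**Figure D4:**
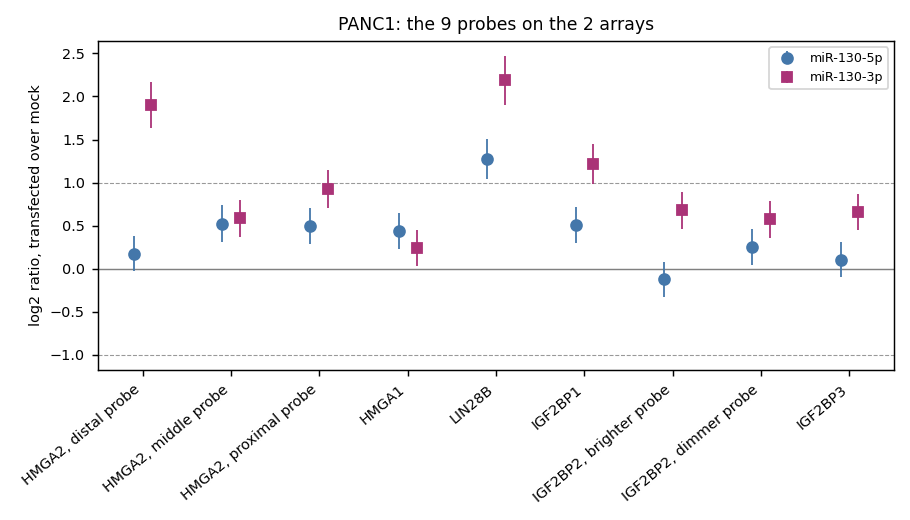
Log2 ratio (vertical axis) of the 9 probes (horizontal axis) in PANC1 cells with miR-130-5p (circles) and miR-130-3p (squares), with the software error as bars and dashed lines at 2-fold. LIN28B is past 2-fold on both arrays (1.27 and 2.19), the HMGA2 distal probe (1.90) and IGF2BP1 (1.22) with miR-130-3p.

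Other genes known as let-7 targets were read from a list of 22 genes with 32 probes, none of which is among the 6 genes. With si-PIR-2, 6 of 29 measured probes of this list were at least 2-fold higher (20.7%, against 6.04% of all probes) and with si-PIR-3 4 of 29 (13.8%, against 3.99%), with medians of 0.22 and 0.32 where all probes had 0.05 and 0.04. With miR-144-5p and miR-144-3p, 0 of 28 were higher, against 4.20% and 4.58% of all probes, with medians of 0.13 and 0.00. With miR-204-5p, 1 of 28 was higher in SW1990 (3.57%, against 4.67% of all probes, median 0.25) and 1 of 29 in MDA-MB-231 (3.45%, against 3.54%, median 0.21). In SW1990 1 probe was lower, of IL6 at -1.41 (3.57%, against 1.90% of all probes). In MDA-MB-231 2 were lower, E2F2 at -1.32 and RRM2 at -1.35 (6.90%, against 1.84%). In PANC1, 4 of 30 were higher and 2 lower with miR-130-5p (13.3% higher, against 7.96% of all probes, median 0.26), and 9 of 29 were higher and 0 lower with miR-130-3p (31.0%, against 6.32%, median 0.42). The 2 lower with miR-130-5p were RRM2 at -1.31 and TGFBR1 at -1.76 (6.67%, against 6.44% of all probes). These counts are of probes, not of genes. The 4 higher with si-PIR-3 were both probes of THBS1, CDK6 and a probe of NR6A1 whose mock signal was not well above background. IL6 with miR-130-5p and TGFBR1 in SW1990 were also counted as higher with such a mock signal. The 9 with miR-130-3p included 2 probes of NR6A1. Across all probes, limma called 0 of 29370 probes higher (0%) and 0 lower (0%) over the 2 PC3 arrays and 0 of 26650 in either direction over the 2 miR-204-5p arrays (0% and 0%), at an adjusted p under 0.05. At an unadjusted p under 0.05 there were 1857 higher and 1219 lower in PC3, and 2817 higher and 2127 lower with miR-204-5p. No probe of the list had an adjusted p under 0.05. By limma the smallest adjusted p of any probe was 0.384 in PC3 and 0.220 with miR-204-5p. Not passing therefore says nothing of a single gene or of the list.

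CDK6, a kinase that drives entry into the cell cycle, had ratios of 2.03 and 1.02 in PC3, 0.96 in SW1990, 1.25 in MDA-MB-231 and 2.27 with miR-130-3p, and of 0.07, 0.09 and -0.77 with miR-144-5p, miR-144-3p and miR-130-5p. Its mean was 1.52 over the PC3 arrays (adjusted p = 0.439 by limma). Over the miR-204-5p arrays its adjusted p was 0.220 by limma. Neither passed the test, but no probe on the array did, so this says nothing of CDK6. The 5 arrays on which CDK6 was highest were those on which the HMGA2 distal probe was past 2-fold. The HMGA2 ratios were used to choose the 6 genes, and CDK6 is 1 of 22 genes of the list. How many genes share this split was not counted, so nothing is read from the match. THBS1, which encodes the matrix protein thrombospondin, passed 2-fold on both PC3 arrays by 1 of its 2 probes, at 1.05 and 1.23, and had -0.97 and -0.82 in SK-MES-1. ARID3B, a DNA-binding protein, had 2.30 with miR-130-3p and 1.43 and 0.70 in PC3, was also past 2-fold with miR-130-5p, and had 0.85 to 0.97 on the other 4 arrays. CDC25A, a phosphatase of the cell cycle, had 1.67 with miR-130-3p. TRIM71, a let-7 target of embryonic cells, was counted as higher there with a mock signal not well above background, so no size is given.

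Of the genes that make or degrade let-7, 12 with 25 probes, at most 2 probes in either direction were past 2-fold on any array. With miR-130-5p, 2 of 25 were higher (8%, against 7.96% of all probes) and 2 lower (8%, against 6.44%). On the other arrays the share was 0% to 4.55% in each direction. Of all probes, 3.54% to 6.32% were higher and 1.03% to 2.93% lower there. DICER1, the enzyme that cuts precursors to mature miRNAs and itself a let-7 target, had ratios of 2.09 and 1.76 in PC3, 1.33 in SW1990 and 1.29 in MDA-MB-231, and of 0.31, 0.38, -0.40 and 0.27 with miR-144-5p, miR-144-3p, miR-130-5p and miR-130-3p. By limma its mean of 1.93 over the PC3 arrays had an adjusted p of 0.384 and its mean of 1.31 over the miR-204-5p arrays an adjusted p of 0.220. DICER1 differed from the HMGA2 distal probe on the miR-130-3p array, where the latter was past 2-fold. One of 3 probes of TUT4 had -3.30 and -2.54 in PC3, whereas the other 2 were at -0.62 or closer to 0 there. LIN28A, the paralog of LIN28B, was well above background in mock cells on 2 arrays only, and its Cy5 signal on none, so no size is given. DROSHA, DGCR8, AGO2 and TARBP2 were under 2-fold on all 8 arrays, from -0.64 to 0.52.

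Of 4 transcripts that host let-7 genes, MIRLET7BHG was below 0 on all 8 arrays, between -1.23 with miR-144-5p and -0.32 with si-PIR-3. Its probe was dim, with mock levels of 5.16 to 7.08, and its ratios under other processing were not read. Both probes of HUWE1 lay between -0.61 and 0.24. The 3 probes of MIR100HG lay between -0.32 and 0.90. Of the 7 probes of MIR99AHG, the 1 measured on all 8 arrays lay between 0.20 and 0.62, and another was past 2-fold lower in MDA-MB-231, at -1.02, and past 2-fold higher with miR-130-3p, where its mock signal was not well above background. The array reads host transcripts, not mature let-7. Of 10 other oncofetal genes with 14 probes, 3 of 13 measured probes were 2-fold higher with miR-130-3p, against 6.32% of all probes, those of H19, PEG10 and SALL4, at 1.04, 1.02 and 1.73. In SW1990 with miR-204-5p, 4 of 10 were lower, against 1.90% of all probes, those of H19, IGF2 and CEACAM5. PLAC1 was past 2-fold higher with miR-144-5p and miR-144-3p and AFP in MDA-MB-231, each with a mock signal not well above background, and AFP was lower with miR-144-3p, at -1.07. None was past 2-fold in PC3 or with miR-130-5p. Of 4 neighbouring transcripts, RPSAP52, which overlaps HMGA2 from the other strand, lay between -0.20 and 0.33 on the 8 arrays. Its probe had mock levels of 13.4 to 14.5 in all 5 lines, and whether it also reads related transcripts was not tested. IGF2BP2-AS1 lay between -0.30 and 0.90, with a mock signal not well above background on 3 of the 8 arrays. HMGA2-AS1 and LIN28B-AS1 had no probe under those names.

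**Figure D5:**
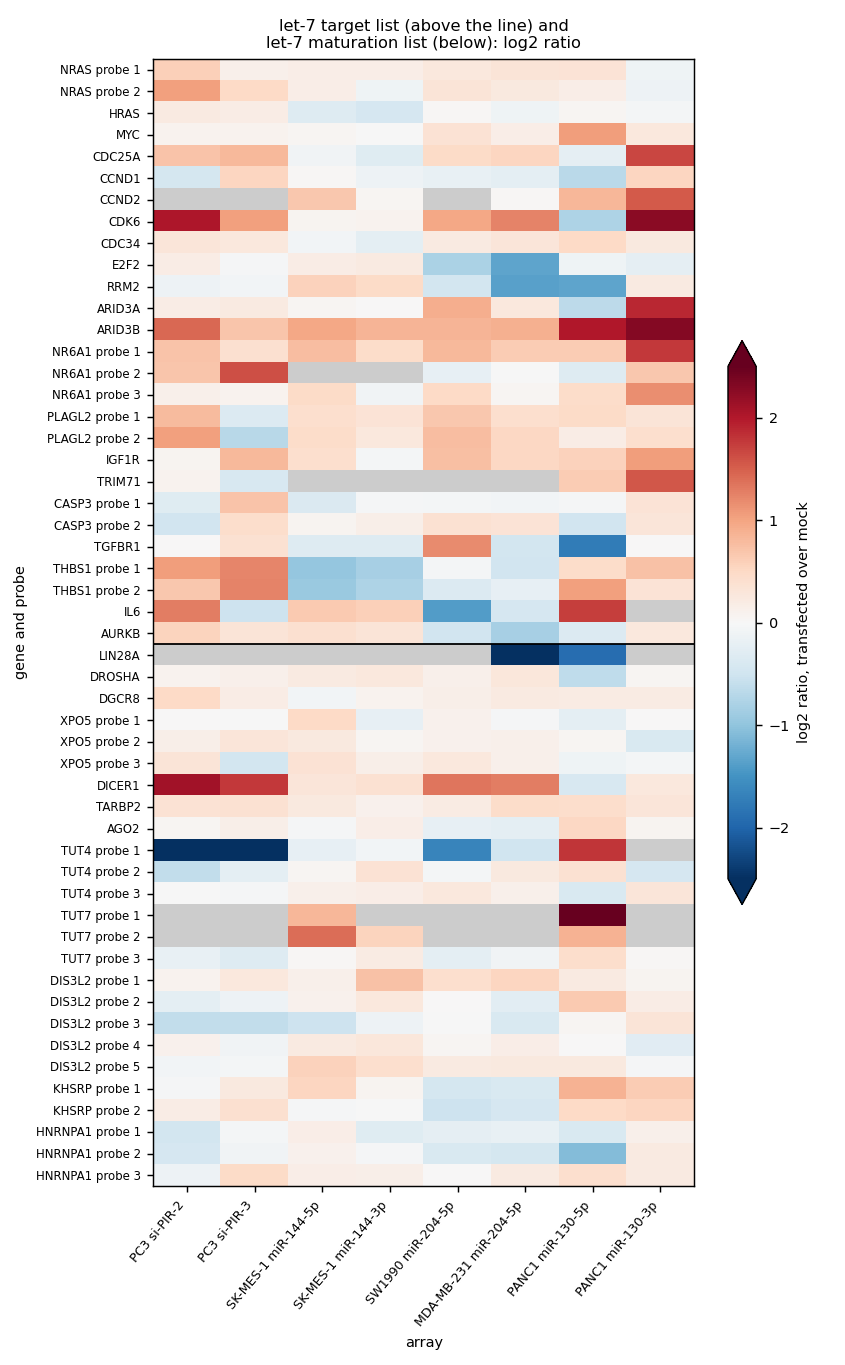
Log2 ratio (colour, transfected over mock, from blue for lower to red for higher, cut at -2.5 and 2.5) of measured probes of the let-7 target list, leaving out 1 gene, and of the let-7 maturation list (rows) on the 8 arrays (columns). Grey cells have neither channel well above background. CDK6 is at 0.96 or more on both PC3 arrays, both miR-204-5p arrays and the miR-130-3p array. DICER1 is at 1.29 or more on both PC3 and both miR-204-5p arrays.

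The probes that carry the let-7 seed match CTACCTC were also described as a group. Between 114 and 124 of the 183 probes were measured on an array, and their median ratio minus that of all other probes lay between -0.05 with miR-144-3p and 0.09 with miR-130-5p. With miR-130-3p, 11.9% of them were at least 2-fold higher, against 6.30% of the other probes, and with miR-130-5p 10.2% against 7.95%, while on the other 6 arrays the share was 1.74% to 4.84% against 3.54% to 6.04%. For comparison, the probes with AAAGGGA, which pairs with the seed of miR-204-5p, had a difference of -0.24 in SW1990 and -0.25 in MDA-MB-231, and between -0.07 and 0.02 on the other 6 arrays. Those with TTGCACT, which pairs with the seed of miR-130b-3p, had -0.11 on the miR-130-3p array and also -0.11 on the miR-130-5p array. Probes with GAAAGAG, for miR-130b-5p, had -0.25 on the miR-130-5p array and -0.07 on the miR-130-3p array. With AAAAGAG, for miR-130a-5p, the differences there were -0.14 and -0.04. On the arrays of their own miRNA, TGATATC, for miR-144-5p, had -0.12 and ATACTGT, for miR-144-3p, had 0.08. None of the 9 probes of the 6 genes carried the seed match of a transfected miRNA listed above, on the strand of the transcript.

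The genes whose ratios were most like those of the 6 genes over the 8 arrays were found among 18731 genes measured on every array, by Pearson r with each gene's brightest probe. For HMGA2, by the distal probe, they were RPL6 (r = 0.985), the transcript ENST00000458237 (r = 0.983) and MSRB2 (r = 0.975), but their own ratios ranged only from -0.63 to 0.22. For HMGA1 they were SNORD22 (0.990), DBF4 (0.977) and lnc-HLA-DMA-1 (0.973), for IGF2BP2 TBC1D4 (0.976), lnc-PINK1-2 (0.974) and TXNDC11 (0.965), and for IGF2BP3 IL1RAP (0.990), ENST00000559946 (0.964) and ZNF117 (0.963). LIN28B and IGF2BP1 were not measured on every array. The arrays share cell lines and possibly mock RNA, and with 8 points among 18731 genes a high r is common: 83 genes had an r over 0.9 with HMGA2, and no p is given.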

How the data were processed

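The authors deposited the scanner output of 8 two-colour arrays, with Cy3 and Cy5 intensity for each spot on a linear scale and, as log10, the ratio of Cy5 to Cy3. Agilent Feature Extraction 11.5.1.1 had subtracted background and normalized the dyes. The log10 values in the authors' table of the whole series equal those of the scanner output (largest difference 0). Ratios were turned to log2, control and outlier spots were left out, spots of a probe were averaged and probes were kept apart. A probe was well above background where at least 50% of its spots were. Mock levels are log2 processed Cy3 signals after Aquantile in limma 3.58.1 (R 4.3.3). Background and gene lists, but not the 6 genes, were tested with lmFit and eBayes over the 2 PC3 arrays and over the 2 miR-204-5p arrays, with Benjamini-Hochberg adjustment over all probes at 0.05. With 1 control sample on each array, the spread of mock cells is left out of this test, and nothing says that replicates came from separate cultures. With 1 array, called means a log2 ratio of at least 1 or at most -1. The genes and the lists were chosen with earlier results of these data known, and the lists were written from general knowledge. Named from the lists were genes past 2-fold in 1 direction on both PC3 or both miR-204-5p arrays and examples chosen after their values were seen. The limma fit was tested on simulated data with known changes. Alternatives were normexp with loess at offsets of 50 and 1, median centring, other filters on dim probes, the value table, 75th percentile scaling of mock levels and leaving out each PC3 array. Of the 9 probes, all 9 matched RefSeq by accession with the same symbol. Values of some single genes are not reported here, although the list counts include them. Exons were not assigned, and depth is not defined for arrays. Figures were drawn with matplotlib 3.10.9.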

Additional observations from a re-analysis of the deposited data

How the results depend on the processing

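The 8 ratios of the 6 genes past 2-fold stayed 8 with normexp at offsets of 50 and 1, with median centring and in the authors' value table, and the same 8 were past it with normexp at an offset of 50. Of 67 measured ratios, 9 moved by more than their software error with normexp at an offset of 50, all of dim probes, among them the HMGA2 middle probe in SK-MES-1 (0.31 and 0.30). The line with the highest mock level was the same for all 9 probes under both other scalings, while sizes moved: with normexp at an offset of 50, LIN28B in PANC1 minus SK-MES-1 went from 4.75 to 2.74, IGF2BP1 in PANC1 minus SW1990 from 5.01 to 2.46, the HMGA2 middle probe in PC3 minus SK-MES-1 from 4.99 to 3.05 and the dimmer IGF2BP2 probe in PC3 minus SK-MES-1 from 1.01 to 0.41. With 75th percentile scaling, the HMGA2 distal probe in SK-MES-1 minus MDA-MB-231 went from 2.69 to 2.40 and IGF2BP3 in SK-MES-1 minus PC3 from 2.19 to 1.85. Counts over all probes depended more on the processing. Summed over the 8 arrays, 18659 ratios were past 2-fold, 12542 of them higher, against 1715 (618 higher) with normexp at an offset of 50, 6668 (3248 higher) at an offset of 1 and 7801 (2639 higher) among probes well above background in both channels. Limma called 0 probes in PC3 under every alternative run. For miR-204-5p it called 1531 (702 lower and 829 higher) with normexp at an offset of 50 and 6, all lower, with the filter on both channels, and 0 otherwise. In PC3, 354 probes were past 2-fold on both arrays, and 1558 to 2104 when 1 array was left out, which gives no residual degrees of freedom and no test. No paired analysis was possible because no groups of arrays share replicate numbers beyond 1, and the pairing of transfected with mock cells on an array is already in each ratio and in the limma fits. Dim signal limits LIN28B and IGF2BP1 outside PANC1 and SK-MES-1.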
